A study of Mus musculus with 4 samples.

Results

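The molecular chaperone genes were defined by symbol among the protein-coding genes of GENCODE mouse release M21 (mm10). They comprise the heat shock protein genes (Hspa to Hspe, Hsph and Hsp90), the DnaJ genes of classes A, B and C and the Cct2 to Cct8 chaperonin genes, and 80 of 21951 protein-coding genes met the definition. Eya1 occupancy at these genes was taken from ChIP-seq of E13.5 mouse kidneys. The kidneys came from mice with an Eya1 HA-FLAG knockin allele, so that Eya1 carried both tags and was precipitated with anti-FLAG M2 beads from a pool of 80 kidneys per assay. The series holds 4 samples, all labelled as kidney, of which 2 are replicate precipitations of Eya1, 1 is an input and 1 is an IgG precipitation. A peak list was analysed for each of the Eya1 samples, and neither the input nor the IgG sample was used here. Nothing in the labels says whether the 2 pools came from separate litters. Whole kidneys were used, so that occupancy in more cells and stronger occupancy in fewer cells cannot be told apart, and nothing in the lists shows which cells the signal came from.

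Chaperones hold unfolded proteins in a state from which they can fold. HSP70 proteins bind and release short stretches of a client with the energy of ATP, DnaJ proteins (also called HSP40) bring clients to HSP70 and start ATP hydrolysis, HSP90 acts on clients that are nearly folded, and the chaperonins HSP60 and CCT enclose a client in a chamber. Many of these genes are transcribed in every cell and are further induced by the heat shock factors, which bind the heat shock element, while the chaperones of the endoplasmic reticulum (ER) are induced through the ER stress element. Eya1, a coactivator and phosphatase needed for nephron progenitors, has no DNA-binding domain and is brought to DNA by partners such as the homeodomain factor Six2.

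A gene was scored as carrying a peak when the peak interval lay within 1 kb of any of its annotated transcription start sites (TSSs). Of the 80 chaperone genes, 33 had a peak in at least 1 replicate (41.25%, 95% CI 30.4 to 52.8%), against 23.5% of all protein-coding genes. Replicate 1 placed a peak at 27 of them (33.75%, against 20.2% of all genes) and replicate 2 at 25 (31.25%, against 14.7%). Overlapping peaks of both replicates, called shared peaks below, were found at 19 chaperone genes (23.75%, 95% CI 14.9 to 34.6%, against 11.3% of all genes). The remaining occupied genes were split between 8 with a peak in replicate 1 only and 6 with a peak in replicate 2 only, and 47 genes had none. In 0 genes did both replicates place peaks that failed to overlap. The exact (Clopper-Pearson) intervals cover counting error over genes. The lists give positions with no count or score, so that the read depth of each peak is unknown.

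Chaperone promoters are rich in CpG dinucleotides, with a median of 66 CpG in the 1 kb around the TSS against 42 in other protein-coding genes. Peaks were found more often the more CpG a promoter held. In other genes, the share with a peak in either replicate went from 0.684% in the poorest of 10 CpG bins to 61.4% in the richest. The shares were therefore set beside other promoters of like CpG count, by averaging the share of other genes over the bins in which the chaperone genes fell. Promoters of like CpG count had a peak in either replicate in 36.1% of cases, which leaves a difference of 5.14 percentage points (interval -5.76 to 16.7). For shared peaks the value was 17.7%, a difference of 6.05 points (interval -2.76 to 16.9). The corresponding values were 31.3% for replicate 1 and 22.8% for replicate 2. The difference that remained was 2.47 points in replicate 1 and 8.50 points in replicate 2. The intervals given for either replicate and for shared peaks both include 0. Genes of a peak list are not replicates and several share a promoter, so no p-value was computed.

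The dependence on CpG was visible among the chaperone genes themselves. Those with a peak had a median of 84 CpG (range 39 to 125), those with shared peaks 91, and those without a peak 48 (range 5 to 115). Of the 20 chaperone genes with at most 42 CpG, 1 carried a peak (5%, against 5.13% of other genes in that range). This gene was Dnajc7, a co-chaperone with tetratricopeptide repeats that works with both HSP70 and HSP90, and its start lies beside that of Nkiras2. In the middle range of 43 to 76 CpG, 10 of 28 carried a peak (35.7%, against 32.2%). Of the 32 genes with at least 77 CpG, 22 carried a peak (68.75%, against 55.8%) and 16 carried shared peaks (50%, against 30.4%). CpG was counted at 1 start per gene, whereas a peak at any start was scored. Dnajc6, 1 of these 22, had its peak at a start other than the one whose CpG was counted.

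**Figure D1:**
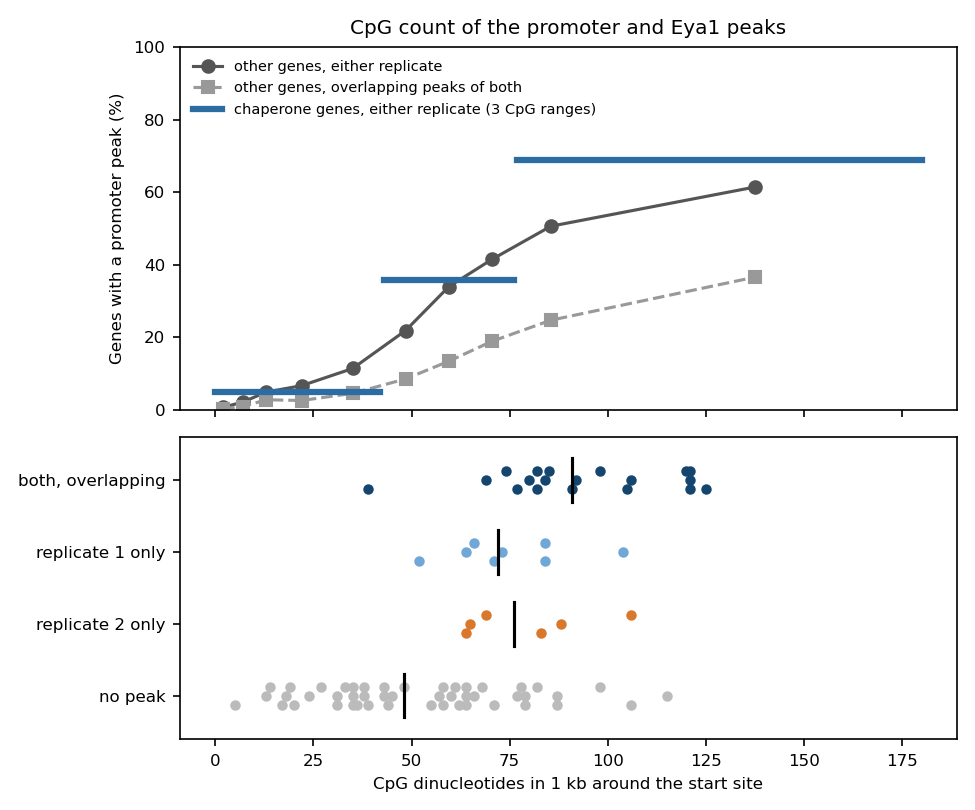
Upper panel: percentage of genes with an Eya1 promoter peak (y axis) against the number of CpG dinucleotides in 1 kb around the TSS (x axis), with a point for each of 10 CpG bins of other protein-coding genes (circles, either replicate; squares, overlapping peaks of both) and a bar for the chaperone genes in each of 3 CpG ranges. Lower panel: CpG count of each of the 80 chaperone genes by peak class, with the median as a vertical line; genes without a peak spread from 5 to 115 CpG, and of those at or below 42 CpG only Dnajc7 carries a peak.

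The number of genes with a peak varied from family to family. All 3 HSP90 genes and both genes of the HSP60 and HSP10 pair had shared peaks. Promoters of like CpG count had shared peaks in 26.7% and 36.6% of cases, and a peak of either replicate in 51.1% and 61.4%. Hsph1, the single gene with the Hsph symbol, had none (against 50.6%), and the small HSP family had 1 in 8 (12.5%, against 17.9%). HSP70 genes carried a peak in 5 of 13 cases (38.5%, against 41.4%), and 4 had shared peaks (30.8%, against 20.4%). The shares were above those of like promoters for CCT, with 4 of 8 (50%, against 40.7%), for DNAJA, with 2 of 4 (50%, against 41.9%), and for DNAJB, with 6 of 13 (46.2%, against 39.6%). Shared peaks were at 2 CCT genes (25%, against 19.8%), 2 DNAJA genes (50%, against 20.8%) and 3 DNAJB genes (23.1%, against 20.1%). The largest class, DNAJC, had a peak in 10 of 28 genes (35.7%, against 31.2% of promoters of like CpG count), of which 2 were shared (7.14%, against 14.6%). Taken over all 45 DnaJ genes, 7 had shared peaks (15.6%, against 16.7%), and over the other 35 chaperone genes the number was 12 (34.3%, against 18.96%). With so few genes per family the exact intervals are wide. For a peak in either replicate they were 29.2 to 100% for HSP90, 13.9 to 68.4% for HSP70 and 18.6 to 55.9% for DNAJC, which overlap each other. For shared peaks the intervals were 0.877 to 23.5% for DNAJC, 29.2 to 100% for HSP90 and 19.1 to 52.2% for the 35 genes other than DnaJ. Promoters of like CpG count had shared peaks in 14.6%, 26.7% and 18.96% of cases. These intervals treat genes as independent, although Hspd1 and Hspe1 have the same peaks. The place of an interval beside another value was therefore not read as a difference. The families were not compared by a test.

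**Figure D2:**
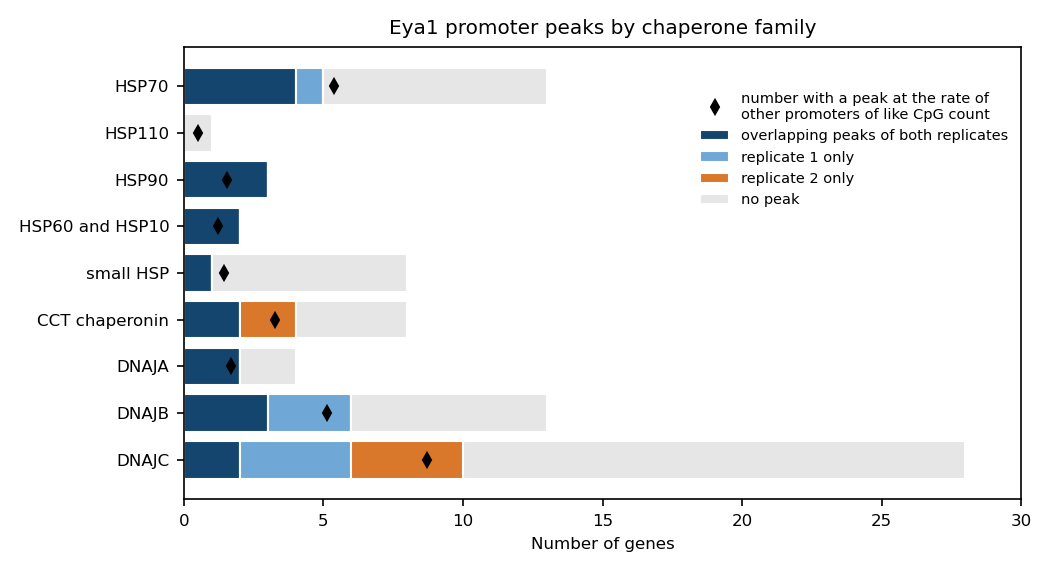
Number of chaperone genes (x axis) in each of 9 families, divided by whether the promoter carried overlapping peaks of both replicates, a peak of replicate 1 only, a peak of replicate 2 only or no peak. The diamond marks the number that would carry a peak at the rate of other promoters of like CpG count; it lies at 1.53 of the 3 HSP90 genes and at 5.39 of the 13 HSP70 genes, of which 5 carry a peak.

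Among the HSP70 genes, the 4 with shared peaks were Hspa8, Hspa5, Hspa4 and Hspa9. Hspa8 encodes the constitutive cytosolic HSP70 (HSC70). Its replicate 1 peak measured 1247 bp (chr9:40800695-40801941), spanned the TSS and enclosed a replicate 2 peak of 266 bp (chr9:40801348-40801613) that began 364 bp downstream of the TSS. Hspa4, counted here by its symbol although its product is a nucleotide exchange factor related to HSP110, had the widest replicate 2 peak of any chaperone gene, at 546 bp (chr11:53299840-53300385), inside a replicate 1 peak of 1248 bp. Hspa9, which encodes the mitochondrial HSP70 mortalin, had peaks of 1043 and 286 bp. Hspa2, an HSP70 gene best known from male germ cells, had a replicate 1 peak of 1331 bp (chr12:76403181-76404511) and no replicate 2 peak. The other 8 HSP70 genes had no peak, namely Hspa1a, Hspa1b, Hspa1l, Hspa4l, Hspa12a, Hspa12b, Hspa13 and Hspa14.

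The heat-inducible HSP70 genes Hspa1a and Hspa1b therefore stood apart from Hspa8 in these lists, although all 3 promoters are of similar CpG count (79, 79 and 85). The nearest peak lay 9.61 kb from Hspa1a and 6.61 kb from Hspa1b, both in replicate 1. Both copies are identical in part, and 977 of the 1951 stretches of 50 bases in the 2 kb around the Hspa1a start (50.1%) also occurred around Hspa1b, while 0 occurred around Hspa8. Reads from such stretches cannot be placed in a single copy, and their part in the absence of a peak was not tested.

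The heat shock element was searched on both strands as 3 alternating triplets of GAA and TTC, each 2 bases apart, from 500 bp upstream to 100 bp downstream of the TSS. It was present in 7 of the 80 chaperone promoters (8.75%) and in 1.08% of all protein-coding promoters. A peak of either replicate was found at 6 of these 7 genes, namely Hspa8, Hspd1, Hspe1, Hsp90aa1 and Dnaja1, which had shared peaks, and Dnajb5, which had a replicate 1 peak. The exception was Hsph1, which encodes HSP110. Hspd1 and Hspe1 hold the same element under the same replicate 1 peak, so that they are not independent cases. With 1 mismatch allowed, 24 chaperone promoters held the element and 10 of them carried a peak (41.7%), close to the share of all chaperone genes. Among all protein-coding genes with the element the share with a peak was 24.5%, and among those without it 23.5%. The shares with and without the element were not matched for CpG count. The exact matches are printed because heat shock factors are known to bind this motif, and whether these copies are bound or act in heat induction was not tested. Each is read on the strand of its gene except in the Hspd1 and Hspe1 pair, which is read on the forward strand, with the element in capitals and 30 bases printed in all (GRCm38, the assembly of mm10).
Hspa8, chr9:40801055-40801084: gcgagcgtGAAAGTTCCAGAAcgccgcggt
Hsp90aa1, chr12:110696379-110696408: ggagggttcTTCCGGAAGGTTCcggaggct
Dnaja1, chr4:40722526-40722555: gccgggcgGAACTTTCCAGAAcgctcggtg
Dnajb5, chr4:42949470-42949499: tgcactcgTTCCAGAAGGTTCtccctggac
Hsph1, chr5:149636280-149636309: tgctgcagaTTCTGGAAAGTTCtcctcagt
Hspd1 and Hspe1, chr1:55088053-55088082: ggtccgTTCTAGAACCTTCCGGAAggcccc

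The elements of Hspa8, Hsp90aa1, Dnaja1, Hspd1 and Hspe1 lay inside the replicate 1 peak, and the element of Dnajb5, at -336 bp from the TSS, lay outside it. In 0 of the 7 genes did this element lie inside a replicate 2 peak. An exact element beyond the promoter window lay in the replicate 2 peak of Cct4. In Hspa8 it sits 79 bp downstream of the TSS and in Dnaja1 54 bp downstream, so that in both the narrower replicate 2 peak began further into the gene. The Hspd1 and Hspe1 element is a pair of overlapping matches that together cover 18 bp. It lies between the starts of both genes, which are 108 bp apart and transcribed away from each other.

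Hspd1 and Hspe1 encode HSP60 and HSP10, the barrel and the lid of the mitochondrial chaperonin, and share their promoter. A single replicate 1 peak of 1770 bp covered both starts (chr1:55087004-55088773) and enclosed replicate 2 peaks of 214 bp (chr1:55087339-55087552) and 119 bp (chr1:55087652-55087770). Both replicate 2 peaks fell on the Hspd1 side, 254 to 685 bp downstream of its TSS and outside annotated exons. These genes had the same peaks and are not independent observations; counting genes with a common peak once gave 32 chaperone promoters with a peak rather than 33. The shorter replicate 2 peak is shown on the Hspd1 strand with its 15 CpG dinucleotides in capitals. It is a CpG-rich example rather than a typical replicate 2 peak, and the longer peak of 214 bp held 16 CpG.
Hspd1, replicate 2 peak, chr1:55087652-55087770: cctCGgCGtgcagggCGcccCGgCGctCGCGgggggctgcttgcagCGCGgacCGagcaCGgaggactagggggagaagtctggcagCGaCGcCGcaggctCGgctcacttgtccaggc

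The 3 HSP90 genes all had shared peaks. Hsp90ab1, the constitutive cytosolic form, had the widest replicate 1 peak of any chaperone gene (2383 bp, chr17:45572138-45574520) and a replicate 2 peak of 309 bp (chr17:45572858-45573166). At Hsp90aa1, the inducible cytosolic form, the peaks were narrower in replicate 1 (843 bp, chr12:110695649-110696491) and slightly wider in replicate 2 (367 bp, chr12:110695919-110696285). The order of the cytosolic forms by width thus differed between replicates. Hsp90b1, the ER form (GRP94), had peaks of 1393 bp (chr10:86704271-86705663) and 192 bp (chr10:86704886-86705077).

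Hsp90b1 was also 1 of 3 chaperone genes whose promoter held the ER stress element, searched as CCAAT followed by CCACG with 9 bases between them (3.75% of chaperone promoters and 0.137% of all promoters). The others were Hspa5, which encodes the ER HSP70 BiP, and Dnajc3, which encodes an ER DnaJ protein. All 3 genes had shared peaks, and all 4 elements lay inside a replicate 1 peak and outside the replicate 2 peaks. Among all 30 genes with the element in their promoter, 33.3% had a peak in either replicate. The elements are shown in capitals, in 30 bases on the strand of the gene for Hspa5 and in the 180 bases upstream of the TSS for the other genes, because the motif is known for the response to unfolded proteins, and the activity of these copies was not tested. The Hspa5 element began 55 bp downstream of the TSS, in an annotated exon of the gene. In Hsp90b1 the second element is on the reverse strand.
Hspa5, chr2:34772020-34772049: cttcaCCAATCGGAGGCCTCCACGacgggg
Hsp90b1, chr10:86705510-86705689: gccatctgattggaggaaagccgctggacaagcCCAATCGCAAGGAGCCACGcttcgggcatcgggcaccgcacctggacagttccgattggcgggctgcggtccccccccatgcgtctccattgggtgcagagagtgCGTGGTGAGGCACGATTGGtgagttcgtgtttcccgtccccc
Dnajc3, chr14:118937796-118937975: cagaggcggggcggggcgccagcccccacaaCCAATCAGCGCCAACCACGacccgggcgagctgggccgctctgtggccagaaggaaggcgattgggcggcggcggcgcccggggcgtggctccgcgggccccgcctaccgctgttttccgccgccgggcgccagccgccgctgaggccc

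Hspa5 differed from the other genes in having 2 separate peaks in each replicate. In replicate 1 these measured 737 bp upstream of the TSS (chr2:34771063-34771799) and 918 bp downstream of it (chr2:34771979-34772896), and in replicate 2 317 bp (chr2:34771430-34771746) and 297 bp (chr2:34772095-34772391), 1 inside each replicate 1 peak. Dnajc3 had a replicate 1 peak of 1440 bp (chr14:118937353-118938792) and a replicate 2 peak of 147 bp (chr14:118938044-118938190) that lay 68 to 214 bp downstream of the TSS. By contrast, the replicate 2 peak of Hsp90b1 began 432 bp into the gene, outside annotated exons. It is shown on the strand of the gene with its 17 CpG dinucleotides in capitals, for comparison with the upstream stretch printed above, which holds both elements.
Hsp90b1, replicate 2 peak, chr10:86704886-86705077: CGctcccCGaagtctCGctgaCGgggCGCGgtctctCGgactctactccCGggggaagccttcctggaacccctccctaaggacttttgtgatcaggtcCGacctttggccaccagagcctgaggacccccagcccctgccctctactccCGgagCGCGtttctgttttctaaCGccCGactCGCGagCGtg

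In all, 6 of 10 ER chaperone genes carried a peak, where promoters of like CpG count had a peak in 49.3% of cases. Shared peaks were at 4 of the 10 (40%, against 24.8% of like promoters). The fourth with shared peaks was Dnajb14 (939 and 307 bp), which encodes an ER membrane DnaJ protein. Its relative Dnajb12 had a replicate 1 peak of 713 bp (chr10:59879502-59880214), and Dnajc1, another ER membrane DnaJ gene, had a replicate 1 peak of 986 bp (chr2:18391886-18392871). Hspa13, Dnajb9, Dnajb11 and Dnajc10 had no peak. Of these, Dnajb9 and Dnajb11 encode soluble ER co-chaperones of BiP, and their promoters held 77 and 82 CpG, as many as those of Hspa5 (77) and Hsp90b1 (82).

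Among the cytosolic DnaJ genes, the class A genes Dnaja1 and Dnaja2, which encode partners of HSC70, had shared peaks. At Dnaja1 a replicate 1 peak of 1692 bp (chr4:40721978-40723669) enclosed a replicate 2 peak of 230 bp (chr4:40722673-40722902), and at Dnaja2 a peak of 1117 bp (chr8:85554633-85555749) enclosed a peak of 321 bp (chr8:85554969-85555289). Dnaja3, whose product is mitochondrial, and Dnaja4 had none. The replicate 2 peak of Dnaja1 is shown with its 27 CpG dinucleotides in capitals. It lies 193 to 422 bp downstream of the TSS, outside annotated exons and beyond the heat shock element printed above.
Dnaja1, replicate 2 peak, chr4:40722673-40722902: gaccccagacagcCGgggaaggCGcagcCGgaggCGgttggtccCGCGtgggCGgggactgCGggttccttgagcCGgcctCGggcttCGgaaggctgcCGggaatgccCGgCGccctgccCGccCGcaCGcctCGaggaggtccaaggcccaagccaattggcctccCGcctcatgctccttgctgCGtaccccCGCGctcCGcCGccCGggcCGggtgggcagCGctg

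In class B, shared peaks were found at Dnajb4, Dnajb6 and Dnajb14. Dnajb4, a cytosolic relative of Dnajb1, had a replicate 1 peak of 2276 bp (chr3:152209397-152211672) with 3 replicate 2 peaks of 145, 437 and 120 bp inside it. All of them lay upstream of the start that most of its coding transcripts use. The peak of 145 bp overlapped a Dnajb4 exon downstream of another Dnajb4 start, and those of 437 and 120 bp lay toward the neighbouring gene Fubp1. Dnajb6, which encodes a suppressor of protein aggregation, had peaks of 1452 bp (chr5:29735328-29736779) and 208 bp (chr5:29736309-29736516). Dnajb1, the heat-inducible HSP40 gene, had a replicate 1 peak of 1506 bp (chr8:83607502-83609007) and no replicate 2 peak within 1 kb, and its start is paired with that of Tecr. Dnajb5 had a replicate 1 peak of 1012 bp (chr4:42949721-42950732). No peak was found at Dnajb2, Dnajb3, Dnajb7, Dnajb8, Dnajb9, Dnajb11 and Dnajb13, of which Dnajb3 and Dnajb13 are known from the testis.

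Class C DnaJ proteins share little beyond the J domain, and the peaks at their genes were mostly found in 1 replicate. Only Dnajc7 (1565 bp, chr11:100618699-100620263, and 186 bp, chr11:100619228-100619413) and Dnajc3 had shared peaks. Replicate 1 alone placed peaks at Dnajc1, Dnajc9, Dnajc16 and Dnajc19, of 986, 634, 865 and 221 bp, and the peak at Dnajc19, which encodes a subunit of the mitochondrial import motor, was the narrowest replicate 1 peak of any chaperone gene. Replicate 2 alone placed peaks at Dnajc5, Dnajc6, Dnajc14 and Dnajc21, of 159, 135, 153 and 208 bp. Dnajc5 and Dnajc6 encode the cysteine string protein and auxilin, which act on synaptic and clathrin-coated vesicles. The Dnajc6 peak lay at an alternative TSS 53.8 kb downstream of the start that most of its coding transcripts use. Of the 5 genes for nuclear, RNA and ribosome factors, 2 carried a peak (40%, against 39.4% of promoters of like CpG count). Shared peaks were at 0 of the 5 (against 18.02% of like promoters). Dnajc9, which encodes a histone chaperone, and Dnajc21, a factor in ribosome assembly, carried a peak in 1 replicate each. Dnajc2, Dnajc8 and Dnajc17 carried none. The remaining class C genes without a peak were Dnajc4, Dnajc5b, Dnajc5g, Dnajc10, Dnajc11, Dnajc12, Dnajc13, Dnajc15, Dnajc18, Dnajc22, Dnajc24, Dnajc25, Dnajc27, Dnajc28 and Dnajc30.

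The CCT chaperonin, a ring of different subunits that folds actin and tubulin, had peaks at some of its subunit genes. Cct5 (1180 bp, chr15:31600731-31601910, and 311 bp, chr15:31601354-31601664) and Cct8 (1029 bp, chr16:87495232-87496260, and 164 bp, chr16:87495404-87495567) had shared peaks. Cct2 and Cct4 had replicate 2 peaks of 294 bp (chr10:117063395-117063688) and 239 bp (chr11:22990635-22990873) and none in replicate 1. Cct3, Cct7 and the testis form Cct6b had no peak, and neither had Cct8l1. Cct6a is not typed as protein-coding in release M21 and is therefore outside the 80 genes, and it had overlapping peaks of 1372 bp (chr5:129787031-129788402) and 396 bp (chr5:129787368-129787763). For Tcp1, which encodes the first subunit of the same ring and does not carry the Cct symbol, the peaks were shared and measured 941 and 171 bp. Occupancy of the ring was thus uneven in both replicates, and Cct7 had none although its promoter held 106 CpG, more than that of any CCT gene with a peak.

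Of the 8 small heat shock protein genes, Hspb11 alone carried a peak. Its product is also known as IFT25, a subunit of intraflagellar transport in cilia. The peaks of 1814 bp (chr4:107252423-107254236) and 254 bp (chr4:107253155-107253408) lay at a promoter shared with Lrrc42, and the replicate 2 peak lay from -748 to -495 bp relative to the Hspb11 TSS and covered a TSS of Lrrc42. Hspb1, Hspb2, Hspb3, Hspb6, Hspb7, Hspb8 and Hspb9 had no peak. The median promoter of the family held 35 CpG.

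Set out by use rather than by structure, 7 of 12 genes of the heat shock response had a peak, where promoters of like CpG count had a peak in 48.8% of cases. Of these 12 genes, 6 had shared peaks (50%, against 25.5% of like promoters). This list includes Hspa8 and Hsp90ab1, which are mainly constitutive. Without them 5 of 10 had a peak (50%) and 4 had shared peaks (40%), against 23.5% and 11.3% of all protein-coding genes. The share of like promoters was not computed for these 10 genes, so that these values are not matched for CpG count. Those without a peak were Hspa1a, Hspa1b, Hsph1, Hspb1 and Hspb8. Of 8 mitochondrial chaperone genes 4 had a peak (against 44.0%), namely Hspa9, Hspd1, Hspe1 and Dnajc19. Of 13 genes known mainly from germ cells or muscle, 1 had a peak (against 16.4%), which was Hspa2. Hspd1 and Hspe1 are counted both as heat shock response genes and as mitochondrial genes.

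The map of the peaks around the TSS shows that they lay mainly just inside the genes, as peaks at other genes did. Over the gene and peak pairs, the middle of the peak was a median of 270 bp downstream of the TSS in replicate 1 (28 pairs, against 299 bp at other genes). In replicate 2 it was 266 bp downstream (30 pairs, against 286 bp at other genes). The middle lay downstream in 78.6% and 73.3% of pairs, against 80.5% and 81.5% at other genes. The wide replicate 1 peaks covered the TSS in 25 of 28 pairs (89.3%, against 71.3% at other genes). The replicate 2 peaks covered it in 0 of 30 pairs (against 7.15%), where the TSS is the start that most coding transcripts of a gene use. In all 22 overlapping pairs of peaks the replicate 2 peak lay wholly inside the replicate 1 peak, which was a median of 6.63 times as wide (range 2.29 to 18.97). Of the 27 replicate 1 peaks, 26 overlapped an untranslated region of the chaperone gene and 17 a coding exon, compared with 13 and 9 of the 28 replicate 2 peaks. The peak common to Hspd1 and Hspe1 was scored by Hspd1 exons alone, although it also overlaps a coding exon of Hspe1. Exon overlap and the nesting of peaks were not counted at other genes.

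**Figure D3:**
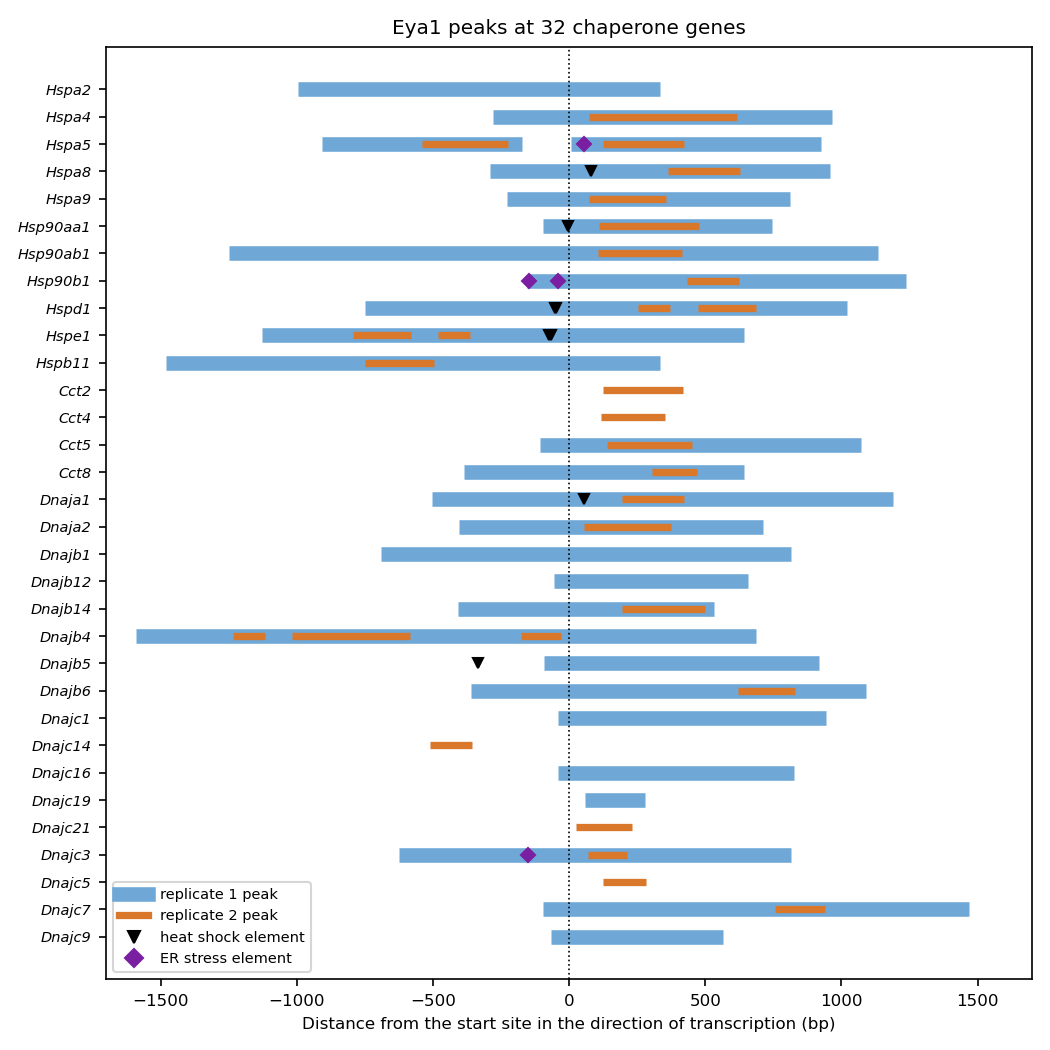
Position of replicate 1 peaks (wide blue bars) and replicate 2 peaks (narrow orange bars) at 32 chaperone genes, as distance in bp from the TSS that most coding transcripts use (dotted line), with transcription to the right; Dnajc6, whose peak lies 53.8 kb away, is left out. Triangles mark heat shock elements and diamonds ER stress elements, none of which falls inside an orange bar, and every orange bar that overlaps a blue bar lies within it.

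Peak widths at chaperone promoters were close to those at other promoters. The median was 1180 bp in replicate 1 (27 peaks, range 221 to 2383 bp) against 1099.5 bp for 3962 other promoter peaks, and 234.5 bp in replicate 2 (28 peaks, range 119 to 546 bp) against 199 bp for 3445 other promoter peaks. Taking the widest peak of each gene and weighting other genes to the same CpG bins gave 1247 against 1189 bp in replicate 1 and 239 against 223 bp in replicate 2, and 14 of 27 and 14 of 25 chaperone genes were above the value for other genes. Chaperone genes with shared peaks had wider peaks than those with a peak in 1 replicate, with medians of 1393 against 925.5 bp in replicate 1 and 266 against 183.5 bp in replicate 2. Other genes showed the same order (1239 against 992.5 bp and 246 against 164 bp).

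**Figure D4:**
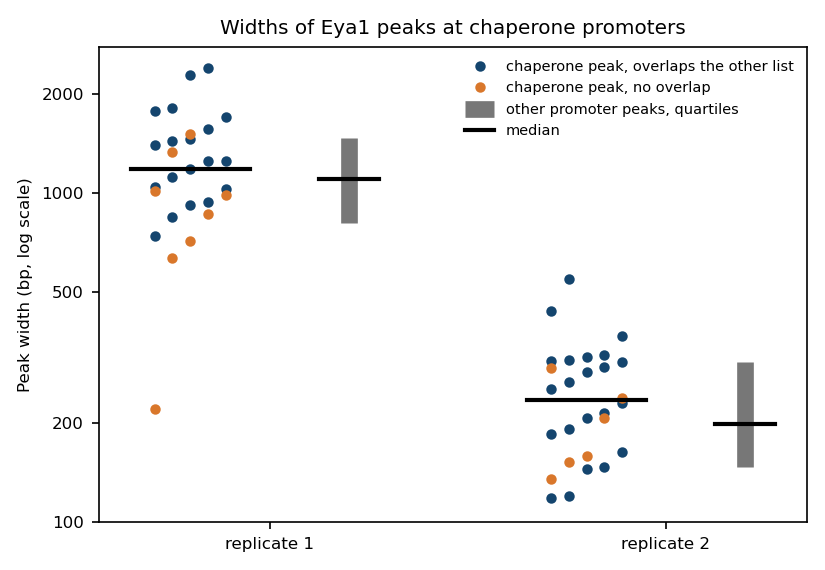
Width of each Eya1 peak at a chaperone promoter (y axis, bp, log scale) in both replicates, coloured by whether it overlaps a peak of the other list, with the median as a black line; grey bars give the quartiles of other promoter peaks. Replicate 1 chaperone peaks have a median of 1180 bp and replicate 2 peaks a median of 234.5 bp, each within the quartiles of other promoter peaks of the same list.

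The sequence under the peaks was similar to that under other promoter peaks in replicate 1, with a median of 7.81 CpG per 100 bp against 7.62, and slightly poorer in CpG in replicate 2, with 8.97 against 10.2. Motifs other than the heat shock and ER stress elements were counted in the same promoter window. The GC box bound by Sp1 was present at 60 of 80 chaperone promoters (75%, against 51.2% of all promoters), at 29 of the 33 with a peak and 31 of the 47 without. The ETS motif was present at 23 (28.75%, against 14.2%), at 14 of those with a peak and 9 of those without. Over all protein-coding genes, a peak of either replicate was found at 35.5% of those with the GC box and 10.9% of those without. For the ETS motif these shares were 38.9% and 20.9%. The motif shares were not matched for CpG count. The CCAAT box (56.25%, against 58.0%) and the TATA box (21.25%, against 25.02%) were as frequent as in all promoters. RE1, the element that the repressor REST recognises, was allowed 2 mismatches and sought within 200 bp windows on the peak middles. It was present in 0 of 27 replicate 1 peaks (against 3.11% of promoter peaks) and in 1 of 28 replicate 2 peaks (against 5.99%), which was that of Hspa8. Over whole peaks, a match was present in the peaks of Hspa5 and Hspa8 in both replicates. In the promoter window it was present at 5 of 80 chaperone genes (6.25%, against 5.97% of all promoters), 1 of them with a peak.

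Promoters near a second protein-coding gene on the other strand were common in this group. Such a partner had a start within 1 kb, to either side, at 23 of 80 chaperone genes (28.75%, against 11.1% of other genes). The starts of a pair need not point away from each other, as a start of Nkiras2 lies downstream of that of Dnajc7. Chaperone genes with such a partner carried a peak in 9 of 23 cases (39.1%, against 45.7% of other genes with a partner), and those without a partner in 24 of 57 (42.1%, against 20.6%). Shared peaks were found at 8 of 23 (34.8%, against 22.3% of other genes with a partner) and 11 of 57 (19.3%, against 9.91% of other genes without a partner). The partner shares and peak shares given here were not matched for CpG count. When other genes were matched for CpG count and for a partner, all 80 chaperone genes differed by 3.51 points for either replicate. For shared peaks that difference was 5.18 points. A peak near the starts of both genes of a pair cannot be assigned to either gene. Another protein-coding gene had a start within 1 kb at 8 of the 27 replicate 1 peaks and 11 of the 28 replicate 2 peaks, Hspd1 and Hspe1 included, such as Fam173b at Cct5, Nkiras2 at Dnajc7, Tecr at Dnajb1, Ttc41 at Hsp90b1 and Lrrc42 at Hspb11.

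The 47 chaperone genes without a promoter peak had none elsewhere in the gene body, and the nearest peak was a median of 45.0 kb from their starts (range 1.27 to 645 kb). For 9 genes it was within 10 kb, and for Dnajc2, Dnajc8 and Hspb9 within 3 kb. Genes without a peak in spite of at least 77 CpG were Hspa1a, Hspa1b, Hspa4l, Hsph1, Cct7, Dnajb9, Dnajb11, Dnajc11, Dnajc13 and Dnajc30. The promoter of Hsph1 held an exact heat shock element, and the nearest peak was 565 kb away.

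Chaperone partners that the symbol definition leaves out were examined as a list of 46 co-chaperones, prefoldin subunits and heat shock factors. Of these, 23 carried a peak (50%, against 37.2% of promoters of like CpG count). The peaks were shared at 13 genes (28.3%, against 17.9% of like promoters) and in replicate 1 only at 10. Hsf1 and Hsf2, which encode the heat shock factors of most tissues, had shared peaks of 1194 and 276 bp and of 1125 and 134 bp, whereas Hsf4 and Hsf5, known from lens and testis, had none. Of the Bag genes, which encode nucleotide exchange factors of HSP70, Bag3 had shared peaks (1103 and 142 bp), Bag1 had a replicate 1 peak (1641 bp), and Bag2, Bag4, Bag5 and Bag6 had none. Among genes for HSP90 partners, shared peaks were found at Ptges3 (1602 and 468 bp), Stip1 (872 and 396 bp), Chordc1 (828 and 281 bp) and Stub1 (2065 and 143 bp). The HSP90 partner genes Fkbp4, Fkbp5 and Sugt1 had a replicate 1 peak only, and Ahsa1, Ahsa2, Cdc37, Cdc37l1 and Unc45a had none.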

How the data were processed

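The authors sonicated crosslinked chromatin, precipitated tagged Eya1, and sequenced on NextSeq 500. Their methods name Bowtie (default settings) and MACS at several P value thresholds against input or IgG. The peaks found against both controls were carried into their later analyses. The labels' processing notes name HISAT2 and mm10. The deposited lists hold peak positions only (4277 peaks in replicate 1, median 1069 bp; 4175 in replicate 2, median 188 bp). The cutoff and control of each list are not given in the sources used here. Per-peak depth is unknown.

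Peaks were assigned to GENCODE M21 TSSs with Python 3.11.15, numpy 2.4.6, pandas 2.3.3, scipy 1.17.1 and pysam 0.24.0, and plotted with matplotlib 3.10.9. CpG was counted in 1 kb around the start used by most coding transcripts, in 10 bins. Sequences were read from GRCm38, and 65 of 80 chaperone genes matched a RefSeq promoter entry. The heat shock elements of Dnaja1 and Dnajb5 were not found in their RefSeq entries, and Hspa8 and Hsp90aa1 had no entry. The other printed elements were found in theirs. The assignment was tested on simulated data. Replicate numbers came from sample titles.

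The genes and lists were chosen with earlier results of these data known. All 80 genes were accounted for by name. Positions were given for the widest shared peaks of each family and for the heat shock response, ER, HSP90 and chaperonin genes with a peak, and sequences for genes with heat shock or ER stress elements. Outside this rule, and picked once values were known, were positions or widths at Hspa2, Hspa9, Dnajb5, the DNAJC genes with a peak in 1 replicate, Cct6a and 4 HSP90 partner genes, the element of Dnajb5, and the counts with 1 mismatch by peak class and without Hspa8 and Hsp90ab1. Alternatives covered the distance to the TSS, the TSS set, overlap, peak width, CpG measure, element search and each replicate.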

Additional observations from a re-analysis of the deposited data

How the results depend on the processing

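Over 9 results and 56 alternatives, 50 values moved by less than their intervals or by at most 1.5 times, 6 moved further and 0 reversed. When peaks had to cover a TSS, 7 chaperone genes had a replicate 2 peak (8.75%, against 4.94% of all genes). Under that setting 5 had shared peaks (6.25%, against 4.08% of all genes). When peaks narrower than their list's median were dropped, 12 had shared peaks (15%, against 5.22% of all genes). The heat shock element was found at 3 chaperone promoters from 250 bp upstream to 50 bp downstream (0.492% of all promoters). It was found at 15 within 1 kb to either side (3.38% of all promoters). With 1 mismatch it was found at 24 (13.4% of all promoters), Hspa1a and Hspa1b included. Leaving out either replicate gave 25 to 27 genes with a peak, and a difference from promoters of like CpG count of 2.47 points without replicate 2 and 8.50 points without replicate 1. Over its 10 alternatives this difference stayed between 2.47 and 8.50 points, and for shared peaks it stayed between 5.18 and 7.40 points over 7. No paired analysis was possible because the peak lists of 1 group were analysed and no test was run. With no counts or scores, a missing peak cannot be told apart from a peak below the authors' cutoff.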
